A study of Mus musculus with 16 samples.

Results

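The genes followed here, 10 in number, encode brakes on T cell receptor signalling and 1 activator they oppose, in naive T cells of the mouse: the diacylglycerol kinases Dgka and Dgkz, the RAS regulators Rasgrp1 and Rasa2, the adaptors Dok1, Dok2, Sla, Sla2 and Lax1, and the lipid phosphatase Inpp5d. They were chosen by gene name and not by a measured value, and all 10 were found among the 24421 genes of the count table. All 10 also passed the filter on low counts, which left 13554 genes to test. Cells came from lymph nodes of C57BL/6 mice, were negative for CD25, high for CD62L and low for CD44, and were sorted on surface CD5. CD5hi is the third of cells with the highest surface CD5 and CD5lo the third with the lowest. The 4 groups were CD8 CD5hi, CD8 CD5lo, CD4 CD5hi and CD4 CD5lo, each with 4 biological replicates, and no group carried a transgene, a deletion or a treatment according to the labels. The middle of the CD5 distribution is not represented, and since the sources used do not say whether each replicate was its own animal, p-values measure the spread between these libraries.

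When a T cell receptor binds its ligand, phospholipase C makes diacylglycerol, which draws the exchange factor RASGRP1 to the membrane, where it loads RAS with GTP. Diacylglycerol kinases end that signal by turning the lipid into phosphatidic acid, and GTPase-activating proteins such as RASA2 return RAS to its inactive form. DOK adaptors, SLAP adaptors, LAX and the phosphatase SHIP-1 act at the receptor and the membrane beside it, and in naive T cells they help to set how strong a stimulus must be. CD5 is itself a receptor that dampens this pathway, and its surface level rises with the strength of self-recognition.

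Libraries held 71447252 to 93418385 counts, and the 10 genes had between 1691 counts (Dok1) and 236133 counts (Dgka) in any library, which puts the counting error (1 SD, counting error only) at no more than 2.43% of a value for Dok1 and 1.7% for the other 9 genes. Summed T cell markers (9 of 12 in the table) reached at least 4901 CPM in every library, where CPM stands for counts scaled to a common library size after normalisation between libraries. Cd8a ran from 1563 to 2140 CPM in the CD8 libraries and reached at most 11.4 CPM in the CD4 libraries. Cd4 stood at 62.2 CPM in CD8 CD5hi replicate 4 and 27.2 CPM in CD8 CD5lo replicate 3, no higher than 2.51 CPM in the remaining CD8 libraries, and at least 970.9 CPM in the CD4 libraries. RNA of the sorted receptor followed the gate, with Cd5 higher in CD5hi by 1.31 ± 0.07 in CD8 cells and by 2.44 ± 0.07 in CD4 cells (log2 change ± SE). Summed regulatory T cell markers (8 of 8 in the table) ran from 204.6 to 224.6 CPM in CD8 CD5hi, 116.3 to 157.9 in CD8 CD5lo, 389.1 to 471.1 in CD4 CD5hi and 125.2 to 155.7 in CD4 CD5lo, so they moved with CD5, and their part in the results was not tested. None of these markers was at 0 in any group. Summed thymocyte markers (6 of 6 in the table, Rag2 at 0 in all 4 groups) ran from 35.1 to 38.7 CPM in CD8 CD5hi and 41.7 to 54.8 in CD8 CD5lo without overlap, and from 41.4 to 47.4 in CD4 CD5hi and 41.0 to 51.1 in CD4 CD5lo, and their part in the CD8 results was not tested. Natural killer cell markers summed to at most 12.6 CPM in any library and were higher in the CD8 groups, with Klra4 at 0 in all 4 groups and Klra8 at 0 in both CD4 groups. In 3 libraries, CD8 CD5hi replicate 4, CD8 CD5lo replicate 3 and CD4 CD5lo replicate 3, the first 2 of which are the CD8 libraries with the most Cd4, B cell markers stood apart (14 of 16 in the table, none at 0 in any group). Their sum ran from 34.3 to 984.6 CPM in CD8 CD5hi, 37.3 to 606.5 in CD8 CD5lo, 10.9 to 39.0 in CD4 CD5hi and 21.4 to 384.8 in CD4 CD5lo. Without those 3 libraries the highest sum was 71.4 CPM, and results that depend on them are given with and without. In bulk RNA, fewer cells of a type and less RNA per cell cannot be told apart.

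The promoter windows of Dgka, Sla2 and Lax1 are shown because these genes had RNA levels that did not overlap between any pair of the 4 groups. The share of all genes with 4 such separate groups is not given here, so the choice does not mark these genes as unusual. Each is the 250 bases before a RefSeq start on GRCm38.p6, all 3 on the minus strand and written 5′ to 3′ in the direction of the gene. None of these 3 windows overlaps an exon of its own gene. Capitals mark the letters of a motif that a search of both strands found. ACCACA is the RUNX motif TGTGGT on the other strand. CTTCCT is the ETS motif AGGAAG on the other strand. An E-box reads CAGCTG on both strands.
Sla2, chr2:156887222-156887471: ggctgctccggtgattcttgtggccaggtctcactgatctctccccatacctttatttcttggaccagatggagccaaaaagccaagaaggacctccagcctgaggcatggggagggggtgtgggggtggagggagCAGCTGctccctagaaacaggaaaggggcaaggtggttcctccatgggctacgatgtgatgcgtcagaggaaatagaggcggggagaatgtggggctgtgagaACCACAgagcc
Lax1, chr1:133690109-133690358: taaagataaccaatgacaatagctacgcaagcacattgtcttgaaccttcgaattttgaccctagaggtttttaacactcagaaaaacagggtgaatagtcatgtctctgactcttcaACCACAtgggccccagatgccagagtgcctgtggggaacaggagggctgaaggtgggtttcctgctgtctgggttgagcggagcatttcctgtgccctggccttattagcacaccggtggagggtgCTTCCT
Dgka, chr10:128744077-128744326: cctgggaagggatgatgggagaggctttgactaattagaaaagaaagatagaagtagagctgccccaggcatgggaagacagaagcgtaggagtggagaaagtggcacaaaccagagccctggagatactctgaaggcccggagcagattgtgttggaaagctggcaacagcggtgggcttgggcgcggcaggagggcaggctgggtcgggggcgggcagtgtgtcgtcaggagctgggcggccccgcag
RefSeq windows were matched for 7 of the 10 genes (12 windows in all), and those of Dok1, Dok2 and Sla were not used here. Among all 32817 windows of this length, 14% hold the RUNX letters, 13% the E-box and 29.5% the ETS letters. In Sla2 the RUNX letters lie 11 to 6 bases before the start and the E-box 114 to 109 bases before it. In Lax1 the ETS letters are the last 6 bases before the start and the RUNX letters lie 132 to 127 bases before it. Dgka has 4 RefSeq windows and Lax1 has 2. The Dgka window shown, whose start lies within 1 base of an annotated transcript start, holds none of the 7 motifs searched, while 2 of its other 3 windows hold the ETS letters. The second Lax1 window overlaps the first and holds the ETS and RUNX letters as well. In none of the 12 windows did the search find the FOXO letters TGTTTAC (3.16% of all windows), the EGR letters GCGTGGGCG (0.536%), the AP-1 letters TGANTCA (6.75%) or the NF-kB motif (3.9%). The NF-kB motif is of interest because the study's title concerns basal NF-kB signalling. A match describes the letters only, and its absence says only that they are not in this window.

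Dgka was by far the most abundant of the 10 genes, and Rasa2 the least. Per kilobase of exon, Dgka averaged 356 ± 15.7 CPM per kb in CD8 CD5hi, 478 ± 19.5 in CD8 CD5lo, 536 ± 21.1 in CD4 CD5hi and 604 ± 32.5 in CD4 CD5lo (mean ± SD, n = 4 libraries each, here and throughout). That placed it 107th, 77th, 71st and 63rd among 12996 ranked genes of those groups. On the same scale Dgkz averaged 103 to 149.7 CPM per kb over the 4 groups, Rasgrp1 64.3 to 100.6 and Lax1 43.0 to 76.1. The adaptors and Inpp5d lay lower, with Dok2 at 31.9 to 45.6, Sla2 at 14.3 to 34.1, Inpp5d at 21.8 to 24.7, Sla at 16.3 to 23.1 and Dok1 at 13.2 to 16.7 CPM per kb. Rasa2 averaged 4.18 to 4.84 CPM per kb, near the middle of the ranking in every group. With the length of the longest transcript in place of all exonic bases, Dgka was still the highest of the 10 (lowest group mean 597 CPM per kb) and Rasa2 the lowest (highest group mean 11.7).

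**Figure D1:**
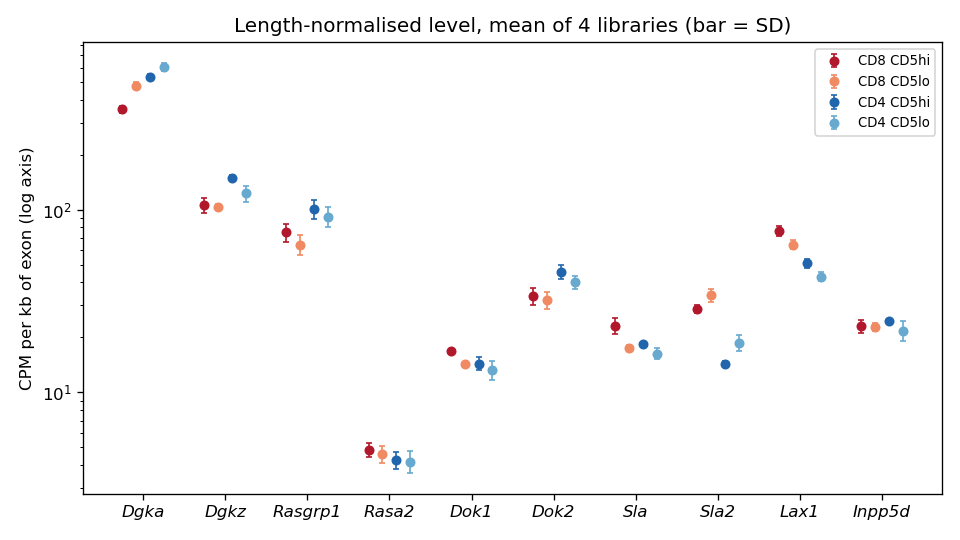
Level of the 10 genes in CPM per kilobase of exon on a log axis, as the mean of 4 libraries with SD bars, for CD8 CD5hi, CD8 CD5lo, CD4 CD5hi and CD4 CD5lo from left to right within each gene. The lowest mean of Dgka is 355.6 CPM per kb and the highest of Rasa2 is 4.84.

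In CD8 cells, high CD5 went with less Dgka and Sla2 and more Sla and Lax1, and in CD4 cells with less Sla2. Of the 10 genes, 2 rose and 2 fell in CD8 CD5hi relative to CD8 CD5lo, and 6 did not pass the test (edgeR quasi-likelihood test, adjusted p under 0.05 over all genes tested). The calls of Dgka and Sla held in all 16 fits that left out 1 library each, while that of Sla2 was lost in 12 of them and that of Lax1 in 5, and both were lost with only the CD8 libraries in the fit. Without the 3 B-marker-rich libraries 1 of the 10 rose (Sla) and 2 fell. Over all genes, 5.95% rose and 3.51% fell in that comparison. In CD4 CD5hi relative to CD4 CD5lo, 0 rose, 1 fell and 9 did not pass, against 2.68% of all genes that rose and 1.4% that fell. An unadjusted p under 0.05 was reached by 6 of the 10 in CD4 cells, and the share of all genes at that level is not given here. DESeq2 called 2 higher (Dgkz and Lax1) and 2 lower (Sla2 and Dgka), and it called 777 genes over the whole table, against 553 by edgeR. In the CD4 comparison, libraries with the same replicate number deviated together, and with the number as a block 3 rose (Lax1, Dok2 and Dgkz) and 2 fell (Sla2 and Dgka). The block raised the number of genes called over the whole table to 1312 in the same comparison. The median log2 change of the 10 genes was 0.08 in CD8 cells and 0.15 in CD4 cells, against -0.003 and -0.007 over all genes.

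**Figure D2:**
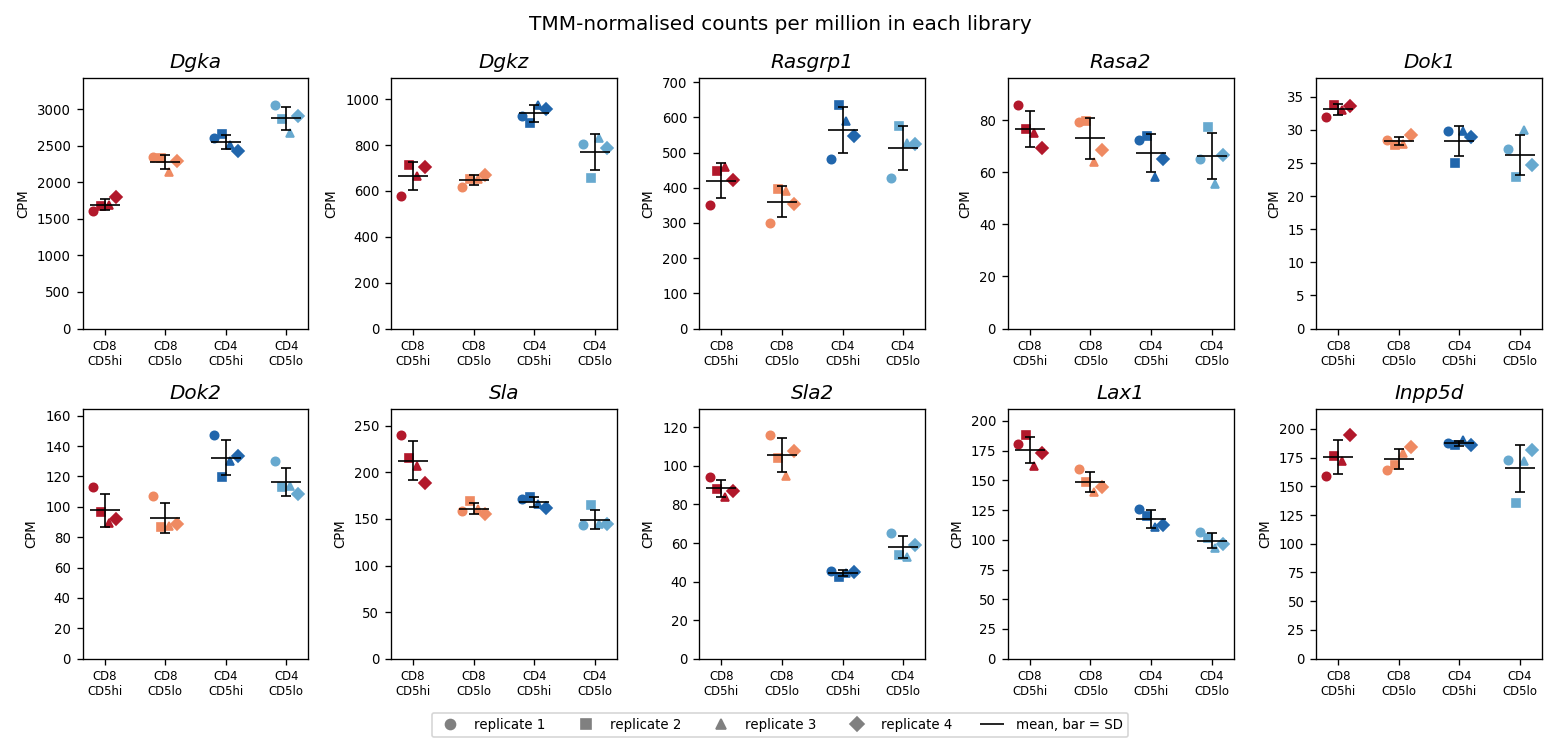
CPM of each gene in all 16 libraries, from left to right CD8 CD5hi, CD8 CD5lo, CD4 CD5hi and CD4 CD5lo, with the marker shape giving the replicate number and the black bars the mean and SD of 4 libraries. Every axis starts at 0, and in Dgka, Sla2 and Lax1 the 4 groups occupy separate ranges. The share of all genes with 4 separate ranges is not given here.

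More of these genes differed between lineages than with CD5. Among CD5hi cells, 4 of the 10 were higher in CD8 than in CD4 cells (Sla2, Lax1, Sla and Dok1), 4 were lower (Dgka, Dgkz, Rasgrp1 and Dok2) and 2 did not pass. The shares of all genes called were 15.6% higher and 14.8% lower. Among CD5lo cells 2 were higher (Sla2 and Lax1), 4 were lower (Dgka, Rasgrp1, Dok2 and Dgkz) and 4 did not pass, against 10% of all genes higher and 9.44% lower. The median log2 difference of the 10 genes was 0.05 among CD5hi cells and 0.09 among CD5lo cells, against 0.010 and 0.000 over all genes. Replicate numbers paired the libraries in both lineage comparisons, and the block added the call of Rasa2 among CD5hi cells. It raised the genes called to 6336 among CD5hi and 4345 among CD5lo cells, against 4111 and 2638 without it. Each group enters both a CD5 and a lineage comparison, so these comparisons share libraries.

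**Figure D3:**
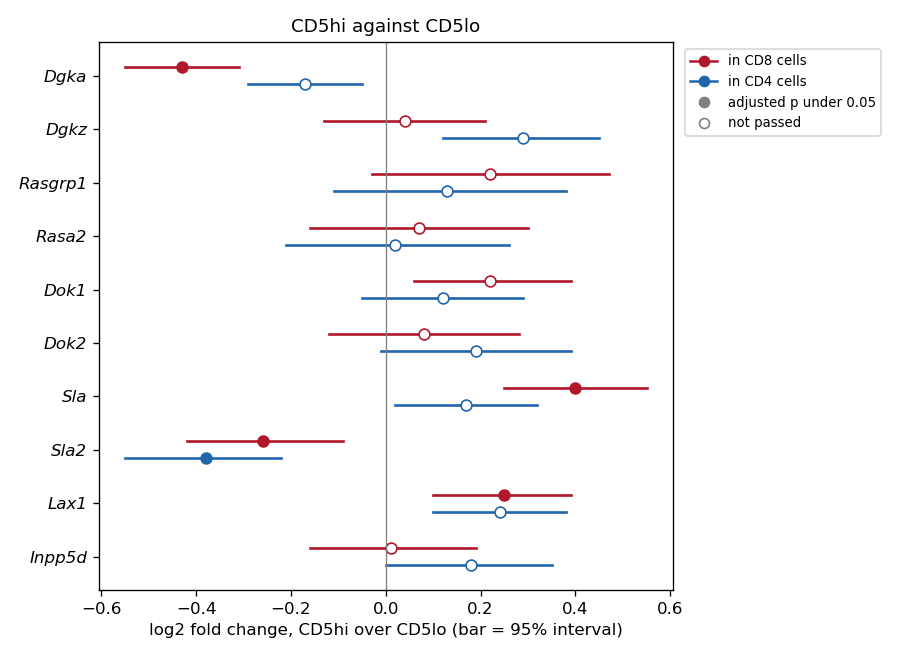
Log2 fold change of CD5hi over CD5lo for the 10 genes with 95% intervals, in CD8 cells (red, upper of each pair) and CD4 cells (blue, lower), from edgeR. Filled points had an adjusted p under 0.05, which 4 genes reached in CD8 cells and 1 in CD4 cells.

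**Figure D4:**
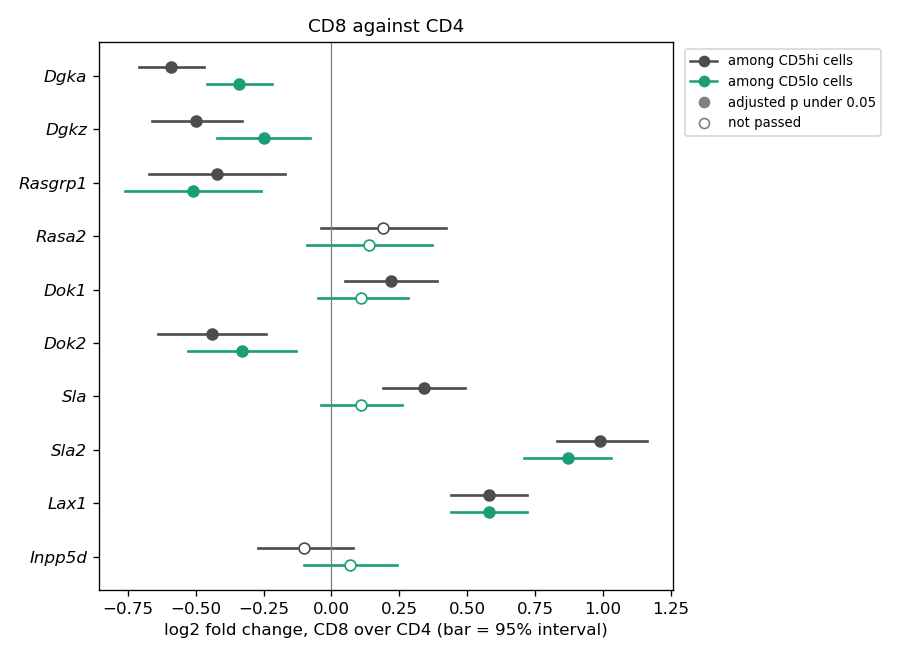
Log2 fold change of CD8 over CD4 cells for the 10 genes with 95% intervals, among CD5hi cells (grey, upper of each pair) and CD5lo cells (green, lower), from edgeR. The widest difference at either CD5 level is that of Sla2, at 0.99 and 0.87.

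Dgka encodes the diacylglycerol kinase alpha isoform, known for its high level in resting T cells and its part in anergy, and lies on chr10:128720134-128744855. It had 1611, 1675, 1695 and 1792 CPM in the CD8 CD5hi libraries and 2342, 2333, 2142 and 2292 CPM in the CD8 CD5lo libraries (replicates 1 to 4, here and below). In CD4 cells it had 2603, 2656, 2512 and 2429 CPM in CD5hi and 3053, 2861, 2678 and 2905 CPM in CD5lo. Every CD5hi library was below every CD5lo library of its lineage, and every CD8 library below every CD4 library. In CD8 cells Dgka fell by 0.43 (log2 change, with an SE of 0.06 and an edgeR adjusted p of 0.000196), and its call held in all 16 fits that each left out 1 library. In CD4 cells the log2 change was -0.17 ± 0.06 (adjusted p = 0.127), and with the replicate block the adjusted p was 0.0382. The difference between these effects was -0.25 ± 0.08 (CD8 minus CD4, unadjusted p = 0.00563, adjusted p = 0.273), so a larger change in CD8 cells was not established. CD8 cells had less Dgka than CD4 cells at either CD5 level, with log2 differences of -0.59 ± 0.06 among CD5hi cells (adjusted p = 7.88e-07) and -0.34 ± 0.06 among CD5lo cells (adjusted p = 0.000346). Pmel shares 2.2% of the exonic bases of Dgka, and none of the 5 comparisons called it. Its level was 18.7 to 82.3 CPM over the 16 libraries, and its log2 changes had the sign of those of Dgka, at -0.55 ± 0.24 and -0.35 ± 0.24 with CD5 in CD8 and CD4 cells and -0.59 ± 0.24 and -0.40 ± 0.24 between lineages among CD5hi and CD5lo cells (edgeR adjusted p 0.0731 or above).

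Dgkz, on chr2:91932824-91975864, encodes the zeta isoform, a main brake on RAS activation by diacylglycerol in T cells. Its levels were 577, 713, 666 and 706 CPM in CD8 CD5hi, 615, 651, 654 and 669 in CD8 CD5lo, 926, 894, 974 and 959.5 in CD4 CD5hi and 804, 657, 832 and 787 in CD4 CD5lo. CD4 CD5hi stood above the other 3 groups without overlap, and the CD8 groups overlapped each other. In CD4 cells the CD5 change was 0.29 ± 0.08 (edgeR adjusted p = 0.0559), and it passed with the replicate block (adjusted p = 0.0183), without CD8 CD5hi replicate 1 (0.0214) and without CD4 CD5lo replicate 3 (0.0459). In CD8 cells it was 0.04 ± 0.08, with a 95% interval of -0.13 to 0.21, and the difference between lineages did not pass (-0.24 ± 0.11, adjusted p = 0.618). CD8 cells had less Dgkz than CD4 cells among CD5hi cells (-0.50 ± 0.08, adjusted p = 0.000161). Among CD5lo cells the groups overlapped and the difference was -0.25 ± 0.08 (adjusted p = 0.0339). That call was lost without the 3 B-marker-rich libraries (adjusted p = 0.187) and without any 1 of CD8 CD5lo replicates 1 to 4 or CD4 CD5lo replicates 1, 3 and 4 (0.0521 to 0.11), and it stood at 0.0501 with only the CD5lo libraries in the fit. In both lineages the mean of Dgka was the lower in CD5hi and that of Dgkz the higher, though in CD8 cells Dgkz differed by less than its SE.

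Rasgrp1, on chr2:117279993-117343001, encodes the exchange factor that diacylglycerol recruits. It is an activator, which both kinases oppose by removing diacylglycerol, and not a brake itself. It had 350.5, 447, 460.2 and 423 CPM in CD8 CD5hi, 301, 398, 391 and 353 in CD8 CD5lo, 481, 635, 591 and 546 in CD4 CD5hi and 427, 576, 528 and 523 in CD4 CD5lo. Replicate 1 was the lowest library in each of the 4 groups, and neighbours in the order of group means overlapped throughout. In the fit without a replicate block the CD5 change did not pass in CD8 cells (0.22 ± 0.12, adjusted p = 0.278) or CD4 cells (0.13 ± 0.12, adjusted p = 0.823), with intervals of -0.03 to 0.47 and -0.11 to 0.38. CD5hi was higher in 4 of 4 same-numbered pairs in CD8 cells (0.17 to 0.26) and in CD4 cells (0.06 to 0.17). With the block the edgeR adjusted p was 0.0017 in CD8 cells, whose numbers were not taken as paired, and 0.063 in CD4 cells. CD8 cells had less Rasgrp1 than CD4 cells, with log2 differences of -0.51 ± 0.12 among CD5lo cells (edgeR adjusted p = 0.00469) and -0.42 ± 0.12 among CD5hi cells (adjusted p = 0.0115). Leaving out CD4 CD5hi replicate 2 brought the CD5hi result to an adjusted p of 0.0501. In the 4 same-numbered pairs of the CD5lo groups the log2 difference lay between -0.57 and -0.44, a narrower range than the libraries themselves span.

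Rasa2, on chr9:96539300-96631617, encodes a RAS GTPase-activating protein whose loss is known to make T cells more responsive to antigen. It averaged 76.7 ± 6.87 CPM in CD8 CD5hi, 73.05 ± 7.87 in CD8 CD5lo, 67.4 ± 7.19 in CD4 CD5hi and 66.2 ± 8.96 in CD4 CD5lo, and all neighbouring groups overlapped. Its CD5 change was 0.07 ± 0.11 in CD8 cells (95% interval -0.16 to 0.30) and 0.02 ± 0.11 in CD4 cells (-0.21 to 0.26). Among CD5hi cells the CD8 to CD4 difference was 0.19 ± 0.11 (edgeR adjusted p = 0.218, and 0.0258 with the replicate block, CD8 being higher in 4 of 4 same-numbered pairs). Among CD5lo cells it was 0.14 ± 0.11 and did not pass either way.

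Dok1, on chr6:83030934-83033471, encodes an adaptor that binds the RAS GTPase-activating protein RASA1 and so restrains RAS downstream of several receptors. It had 31.97, 33.7, 33.03 and 33.6 CPM in CD8 CD5hi, 28.5, 27.7, 27.9 and 29.2 in CD8 CD5lo, 29.8, 25.01, 29.8 and 28.9 in CD4 CD5hi and 27.1, 22.96, 29.9 and 24.7 in CD4 CD5lo. CD8 CD5hi was above the other 3 groups without overlap, while the other 3 overlapped one another. Against CD8 CD5lo the log2 change was 0.22 ± 0.08, which did not pass (edgeR adjusted p = 0.0957) but passed without CD4 CD5lo replicate 3 (0.0492). It also passed with the replicate block (0.0247), in libraries whose numbers were not taken as paired. In CD4 cells the change was 0.12 ± 0.08 (adjusted p = 0.683). Among CD5hi cells Dok1 was higher in CD8 than in CD4 cells by 0.22 ± 0.08 (adjusted p = 0.045). That call was lost without the 3 B-marker-rich libraries (adjusted p = 0.054) and without any 1 of CD8 CD5hi replicates 2, 3 and 4, CD8 CD5lo replicate 3 or CD4 CD5hi replicates 2 and 4 (0.0554 to 0.114). It was also lost with no filter on low counts (adjusted p = 0.0569) and with only the CD5hi libraries in the fit (0.0583).

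Dok2, on chr14:70766036-70778495, encodes the related adaptor that acts together with DOK-1 in T cells. Its levels were 113, 96.4, 89.4 and 91.8 CPM in CD8 CD5hi, 107, 86.6, 87.3 and 88.6 in CD8 CD5lo, 147, 119.5, 130.0 and 133 in CD4 CD5hi and 130.0, 113, 114 and 109 in CD4 CD5lo. Replicate 1 was the highest library in each of the 4 groups. CD8 cells had less Dok2 than CD4 cells, with log2 differences of -0.44 ± 0.09 among CD5hi cells (edgeR adjusted p = 0.00201) and -0.33 ± 0.09 among CD5lo cells (adjusted p = 0.0192). The CD5lo call was lost without the 3 B-marker-rich libraries (adjusted p = 0.0965) and without any 1 of CD8 CD5lo replicates 2, 3 and 4 or CD4 CD5lo replicate 1 (0.0595 to 0.0785). The CD5 change was 0.08 ± 0.09 in CD8 cells (adjusted p = 0.678). In CD4 cells it was 0.19 ± 0.09 (adjusted p = 0.446, and 0.0165 with the replicate block, CD5hi being higher in 4 of 4 same-numbered pairs). Dok1 and Dok2 thus lay on opposite sides of the lineage comparison among CD5hi cells.

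Sla, on chr15:66780819-66831829, encodes SLAP, an adaptor that works with the ubiquitin ligase CBL to lower the receptor's zeta chain, mainly in thymocytes. It had 239.8, 216, 207 and 188 CPM in CD8 CD5hi, 159, 169, 160.3 and 156 in CD8 CD5lo, 171, 173, 166 and 162 in CD4 CD5hi and 143, 165, 145 and 145 in CD4 CD5lo. Every CD8 CD5hi library was above every library of the other 3 groups. In CD8 cells Sla rose by 0.40 ± 0.07 with CD5 (edgeR adjusted p = 0.0018), a 1.32-fold level, and the call held in all 16 fits that left out 1 library. In CD4 cells the change was 0.17 ± 0.07 with overlapping groups (adjusted p = 0.286), and the difference between lineages did not pass (0.23 ± 0.10, adjusted p = 0.59). CD8 cells had more Sla than CD4 cells among CD5hi cells (0.34 ± 0.07, adjusted p = 0.00162), and among CD5lo cells the difference was 0.11 ± 0.07 (adjusted p = 0.356). Sla lies within the Tg locus and shares no exonic base with Tg.

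Sla2, on chr2:156872457-156887192, encodes SLAP-2, which also partners CBL and restrains receptor signalling in mature T cells. It had 94.2, 88.1, 83.8 and 87.2 CPM in CD8 CD5hi, 116, 104, 94.7 and 108 in CD8 CD5lo, 45.6, 42.3, 44.5 and 45.02 in CD4 CD5hi and 65.2, 53.98, 52.6 and 59.2 in CD4 CD5lo. The 4 groups did not overlap, and the order of their means placed both CD8 groups above both CD4 groups and, within a lineage, CD5lo above CD5hi. In CD4 cells Sla2 fell by 0.38 with CD5 (SE 0.08, edgeR adjusted p = 0.00758), and the call held in all 16 fits that left out 1 library. In CD8 cells it fell by 0.26 (SE 0.08, adjusted p = 0.0456), a call that rests on the choice of libraries. It was kept without CD8 CD5hi replicate 1, CD8 CD5lo replicate 3, CD4 CD5lo replicate 1 or CD4 CD5lo replicate 2, and lost without any 1 of the other 12 (adjusted p 0.0558 to 0.174, log2 change -0.26 to -0.19). It was also lost with no filter on low counts (adjusted p = 0.0731) and with only the CD8 libraries in the fit (0.0948). The CD5 change did not differ detectably between lineages (0.12 ± 0.11, 95% interval -0.11 to 0.35, adjusted p = 0.95).

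The lineage difference of Sla2 was the widest among the 10 genes. CD8 cells had 1.99 times the level of CD4 cells among CD5hi cells (log2 difference 0.99 ± 0.08, edgeR adjusted p = 7.74e-08) and 1.83 times among CD5lo cells (0.87 ± 0.08, adjusted p = 4.42e-07). Rab5if covers 23.6% of the exonic bases of Sla2, and the strand setting of the counting is not known, so reads of the pair could be shared or lost. In the table Rab5if stands as 1110008F13Rik, whose log2 changes were 0.17 and 0.21 with CD5 in CD8 and CD4 cells and 0.12 and 0.16 between lineages among CD5hi and CD5lo cells. None of these passed. Their sign was opposite to that of Sla2 with CD5 and the same as that of Sla2 between lineages. The level of 1110008F13Rik was 14.8 to 26.9 CPM over all libraries.

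Lax1, on chr1:133679091-133690108, encodes a transmembrane adaptor related to LAT that restrains signalling in T and B cells. It had 180.4, 188, 162 and 173 CPM in CD8 CD5hi, 159.8, 149, 140.1 and 144 in CD8 CD5lo, 126, 120.2, 110.4 and 113 in CD4 CD5hi and 106, 102, 92.95 and 96.3 in CD4 CD5lo. The 4 groups did not overlap, with both CD8 groups above both CD4 groups and CD5hi above CD5lo within each lineage. In CD8 cells Lax1 rose by 0.25 ± 0.07 (edgeR adjusted p = 0.0291). This call was lost without the 3 B-marker-rich libraries (adjusted p = 0.0746), with only the CD8 libraries in the fit (0.0668), and without any 1 of CD8 CD5hi replicates 1 and 2 or CD8 CD5lo replicates 2, 3 and 4 (0.058 to 0.111). In CD4 cells the change was 0.24 ± 0.07 (adjusted p = 0.0578, and 0.000782 with the replicate block), and CD5hi exceeded CD5lo by 0.23 to 0.25 in the 4 same-numbered pairs. The difference between the lineages' CD5 changes was 0.00 ± 0.09, with a 95% interval of -0.20 to 0.21. CD8 cells had more Lax1 than CD4 cells, by 0.58 ± 0.07 among CD5hi cells (adjusted p = 6.04e-06) and 0.58 ± 0.07 among CD5lo cells (adjusted p = 8.2e-06).

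Inpp5d, on chr1:87620312-87720507, encodes SHIP-1, the phosphatase that removes a phosphate from the lipid made by PI3K. It averaged 176 ± 14.5 CPM in CD8 CD5hi, 174 ± 9.09 in CD8 CD5lo, 188 ± 2.27 in CD4 CD5hi and 166 ± 20.4 in CD4 CD5lo. In CD8 cells the CD5 change was 0.01 ± 0.08, with a 95% interval of -0.16 to 0.19. In CD4 cells it was 0.18 ± 0.08 (edgeR adjusted p = 0.381), with CD5hi between 185.6 and 190.4 CPM and CD5lo between 135.8 and 181.8, where replicate 2 was the lowest. The lineage differences were -0.10 ± 0.08 among CD5hi cells and 0.07 ± 0.08 among CD5lo cells, and neither passed.

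No gene of the 10 passed the test of a different CD5 effect in CD8 and CD4 cells, where 0.177% of all genes were called higher and 0.133% lower. An unadjusted p under 0.05 was reached by 3 of them, Dgka, Sla and Dgkz, and DESeq2 and the replicate block called 0 as well. The share of all genes at that unadjusted level is not given here, while DESeq2 called 215 genes over the whole table and the block 379. The log2 differences between the lineages' CD5 effects ran from -0.25 for Dgka to 0.23 for Sla. The widest 95% interval was that of Rasgrp1, at -0.26 to 0.44.

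Ratios of related genes within a library do not depend on scaling between libraries, and they are given per kilobase of exon, without a test. The log2 ratio of Dgka to Dgkz averaged 1.75 ± 0.10 in CD8 CD5hi, 2.21 ± 0.09 in CD8 CD5lo, 1.84 ± 0.11 in CD4 CD5hi and 2.30 ± 0.18 in CD4 CD5lo. It was lower in every CD5hi library than in every CD5lo library of the same lineage, and the lineages overlapped at either CD5 level. Dgka made up 77.1% of the RNA of both kinases per kilobase in CD8 CD5hi and 82.2% in CD8 CD5lo, and 78.2% in CD4 CD5hi and 83.1% in CD4 CD5lo. The log2 ratio of Dgka to its opponent Rasgrp1 averaged 2.25 ± 0.15 in CD8 CD5hi and 2.90 ± 0.22 in CD8 CD5lo, with no overlap. In CD4 cells it averaged 2.42 ± 0.17 in CD5hi and 2.73 ± 0.24 in CD5lo, and the groups overlapped, while in the 4 same-numbered pairs CD5hi was lower by a difference of -0.40 to -0.25. The group means of the log2 ratio of Dgkz to Rasgrp1 lay between 0.42 and 0.69, with SDs up to 0.30, and the groups overlapped. In same-numbered pairs CD5hi minus CD5lo was 0.03 to 0.30 in CD4 cells. It was -0.31 to -0.04 in CD8 cells, whose numbers were not taken as paired. The level of a ratio depends on the length used, which leaves its differences between libraries as they are. With the longest transcript in place of all exonic bases, the mean log2 ratio of Dgka to Rasgrp1 was 2.90 in CD8 CD5hi, 3.55 in CD8 CD5lo, 3.07 in CD4 CD5hi and 3.38 in CD4 CD5lo.

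The SLAP pair separated CD5hi from CD5lo within each lineage and CD8 from CD4 cells at each CD5 level, while CD8 CD5hi and CD4 CD5lo overlapped. The log2 ratio of Sla to Sla2 was -0.22, -0.27, -0.27 and -0.46 in the CD8 CD5hi libraries and -1.11, -0.87, -0.81 and -1.04 in the CD8 CD5lo libraries. In CD4 cells it was 0.34, 0.47, 0.34 and 0.28 in CD5hi and -0.43, 0.04, -0.11 and -0.28 in CD5lo. Every CD5hi library was above every CD5lo library of its lineage, and CD4 CD5hi had more Sla than Sla2 per kilobase in all 4 of its libraries. In CD8 CD5hi and CD4 CD5lo, which of the pair was the higher on average depended on the length, while CD8 CD5lo had more Sla2 by either length. With the longest transcript the mean log2 ratio was 0.12 in CD8 CD5hi, -0.53 in CD8 CD5lo, 0.78 in CD4 CD5hi and 0.23 in CD4 CD5lo. The ratio of Dok1 to Dok2 per kilobase was 0.499 in CD8 CD5hi, 0.452 in CD8 CD5lo, 0.315 in CD4 CD5hi and 0.329 in CD4 CD5lo (geometric mean of 4 libraries), and with the longest transcript it was 0.31, 0.281, 0.196 and 0.205 in the same groups. By either length Dok1 was below Dok2 and closest to it in CD8 CD5hi.

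**Figure D5:**
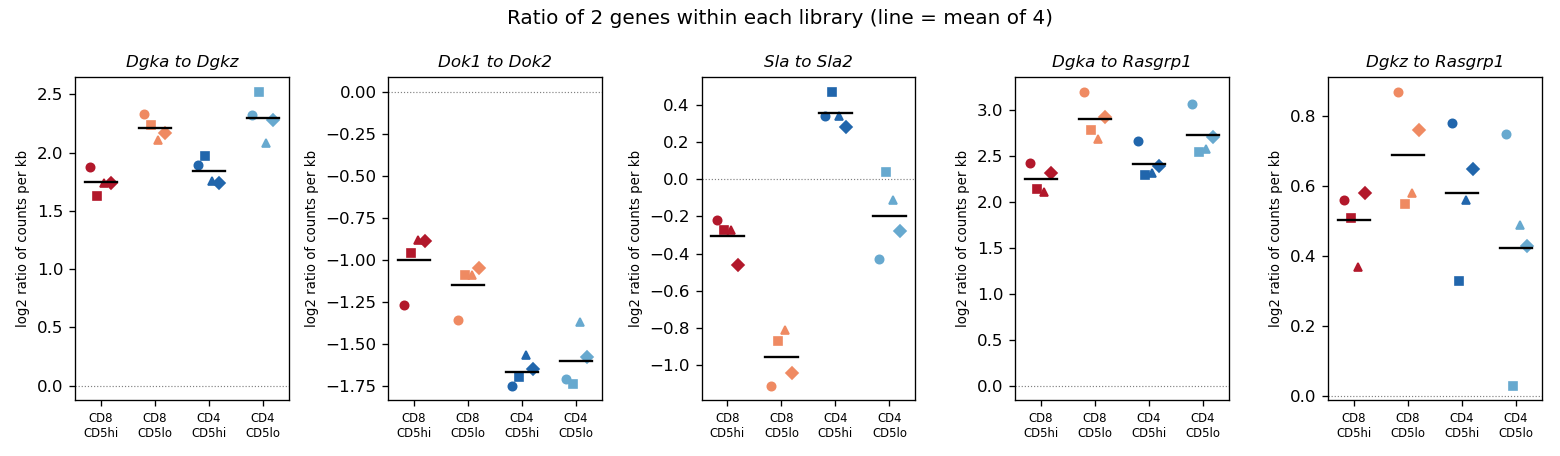
Log2 ratio of counts per kilobase between 2 genes of the same library, for 5 pairs, with groups from left to right CD8 CD5hi, CD8 CD5lo, CD4 CD5hi and CD4 CD5lo, marker shapes as in the plot of CPM by library and lines at the mean of 4. The Dgka to Dgkz and Sla to Sla2 ratios separate CD5hi from CD5lo within both lineages.

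Around these genes, 98 further genes of the pathway were followed in 9 lists with no gene in common, of which 89 were tested. With CD5, 1 rose and 9 fell in CD8 cells, and 4 rose and 4 fell in CD4 cells. Of all genes tested, 5.95% rose and 3.51% fell in CD8 cells, and 2.68% rose and 1.4% fell in CD4 cells. In fits without 1 library, 0 to 3 rose and 3 to 14 fell in CD8 cells, and 2 to 4 rose and 2 to 5 fell in CD4 cells. With the replicate block the CD4 counts were 9 and 8, and without the 3 B-marker-rich libraries they were 3 and 10 in CD8 cells and 4 and 2 in CD4 cells. Over the whole table the block called 1312 genes in the CD4 comparison, against 553 without it. Of the 5 tested diacylglycerol kinases and 3 tested DOK genes outside the 10, 0 passed with CD5 in either lineage by edgeR. In CD8 cells 2 of these kinases had an unadjusted p under 0.05 and DESeq2 called 1 of them, Dgkd, higher. The other counts at that unadjusted level and by DESeq2 were 0. Over the whole table DESeq2 called 1783 genes in the CD8 comparison, against 1282 by edgeR. None of the 89 passed the edgeR test of a different CD5 effect between lineages, where 7 had an unadjusted p under 0.05. DESeq2 called the CD5 effect of 2, Rasal1 and Inpp4a, lower in CD8 than in CD4 cells. The replicate block called 4 in that direction, Rasal1, Inpp4a, Rasgrp4 and Prkcz. Over the whole table DESeq2 called 215 genes in that test and the block 379. The share of all genes with an unadjusted p under 0.05 is not given here for any comparison.

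Of 13 tested partners of the SLAP and DOK adaptors, the same 2 fell with CD5 in each lineage, Grap2 and Cd247, and none rose by edgeR without a block. With the replicate block Cblb, a ubiquitin ligase gene, was also called higher in CD4 cells. Grap2, the adaptor GADS, averaged 842 ± 112 CPM in CD8 CD5hi and 1222 ± 64.6 in CD8 CD5lo (log2 change -0.54 ± 0.09, edgeR adjusted p = 0.00136), and 698 ± 61.2 CPM in CD4 CD5hi and 1040.0 ± 53.98 in CD4 CD5lo (-0.58 ± 0.09, adjusted p = 0.000874). Cd247, the receptor's zeta chain and a target of SLAP, changed by -0.28 ± 0.07 in CD8 cells (adjusted p = 0.0114) and -0.27 ± 0.07 in CD4 cells (adjusted p = 0.026). The call of Cd247 in CD4 cells was lost without the 3 B-marker-rich libraries (adjusted p = 0.0624) and held in 11 of the 16 fits that left out 1 library. Of the 7 transmembrane adaptors beside Lax1, Sit1, an inhibitory adaptor, fell in CD8 cells (-0.64 ± 0.12, adjusted p = 0.00269), and in CD4 cells 0 passed by edgeR, where Sit1 was also called lower by DESeq2 and Sit1 and Lat with the block.

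Among 11 RAS GTPase-activating proteins, 0 passed in CD8 cells by edgeR, by DESeq2 or at an unadjusted p under 0.05, and in CD4 cells Rasal1 rose and Rasa4 fell. Rasal1 averaged 79.7 ± 5.19 CPM in CD4 CD5hi and 45.6 ± 4.44 in CD4 CD5lo (log2 change 0.81 ± 0.12, edgeR adjusted p = 0.000464), and Rasa4 changed by -0.64 ± 0.13 (adjusted p = 0.00906). Of 9 tested exchange factors beside Rasgrp1, Rasgef1a was low and rose in both lineages, with 1.65 ± 0.364 CPM in CD8 CD5hi against 0.721 ± 0.282 in CD8 CD5lo (adjusted p = 0.0191) and 2.08 ± 0.49 in CD4 CD5hi against 0.543 ± 0.208 in CD4 CD5lo (adjusted p = 0.00104). Rasgrf2 fell in CD8 cells (-0.45 ± 0.12, adjusted p = 0.0223). Of the 13 tested genes of RAS itself and of the RAF, MEK and ERK kinases, 0 passed with CD5 in either lineage by edgeR. DESeq2 called 2 of the 13 in CD8 cells, with Rras2 higher, and 1 in CD4 cells. Its calls over the whole table were 1783 and 777, against 1282 and 553 by edgeR. An unadjusted p under 0.05 was reached by 3 of the 13 in CD8 and 4 in CD4 cells. The share of all genes at that level is not given here.

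Of 11 tested genes that make or read diacylglycerol, the protein kinase C gene Prkcz fell in CD8 cells (-0.40 ± 0.10, edgeR adjusted p = 0.0191) and encodes an atypical isoform that does not bind the lipid. Prkca and Prkch, which do, rose in CD4 cells (0.35 ± 0.08, adjusted p = 0.0156, and 0.36 ± 0.09, adjusted p = 0.0243). The call of Prkca was lost without the 3 B-marker-rich libraries (adjusted p = 0.0532), and that of Prkch held in 10 of the 16 fits that left out 1 library. Of 17 phosphoinositide phosphatase and PI3K genes, 4 fell in CD8 cells, the phosphatases Inpp4a and Inpp5a and the PI3K subunits Pik3cb and Pik3r5 (log2 changes -0.37 ± 0.09, -0.36 ± 0.09, -0.36 ± 0.10 and -0.36 ± 0.10). Of these Pik3r5 also fell in CD4 cells (-0.40 ± 0.10). The count of 4 was 0 with only the CD8 libraries in the fit, without CD8 CD5hi replicate 2 or without CD8 CD5lo replicate 2, 1 without CD8 CD5lo replicate 3 or replicate 4, 2 without CD8 CD5hi replicate 1 and 3 to 5 without any other 1 library. Without the 3 B-marker-rich libraries, the adjusted p was 0.0519 for Inpp5a and 0.0684 for Pik3cb in CD8 cells and 0.0767 for Pik3r5 in CD4 cells. The calls of Rasgef1a, Rasgrf2, Prkcz and Pik3cb in CD8 cells held in 11 of the 16 fits that left out 1 library each, and that of Pik3r5 in 4 in either lineage.

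Between lineages, 9 of the 89 were higher and 27 lower in CD8 than in CD4 cells among CD5hi cells. Of all genes, 15.6% were higher and 14.8% lower there. Among CD5lo cells 7 of the 89 were higher and 20 lower, against 10% and 9.44% of all genes. With the replicate block the counts of the 89 were 18 and 34 among CD5hi cells and 20 and 22 among CD5lo cells. Over the whole table the block called 6336 and 4345 genes, against 4111 and 2638 without it. The DOK gene Dok4 was lower in CD8 cells at a low level (at high CD5 0.837 ± 0.0887 CPM in CD8 and 3.46 ± 0.457 in CD4 cells, at low CD5 0.823 ± 0.132 CPM in CD8 and 3.31 ± 0.26 in CD4 cells). The transmembrane adaptor Trat1 differed by -1.74 ± 0.09 among CD5hi cells (edgeR adjusted p = 7.1e-10) and -1.80 ± 0.09 among CD5lo cells (adjusted p = 6.2e-10), opposite in sign to Lax1. The RAS-related GTPase Rras2 was higher in CD8 cells, by 1.79 ± 0.13 among CD5hi cells and 1.29 ± 0.13 among CD5lo cells. Of the RAS GTPase-activating proteins, Rasal1 was lower in CD8 cells (-1.47 ± 0.12 and -0.74 ± 0.12 at high and low CD5), as was Rasa3 (-0.22 ± 0.05 and -0.30 ± 0.05). Of the kinases that share the reaction of Dgka, Dgkd was lower in CD8 cells, with log2 differences of -0.20 ± 0.06 among CD5hi cells (adjusted p = 0.0145, and 0.0645 without the 3 B-marker-rich libraries) and -0.32 ± 0.06 among CD5lo cells (adjusted p = 0.000661). Among phosphoinositide phosphatases Inpp4a (-1.26 ± 0.09 and -0.69 ± 0.09 at high and low CD5) and Inpp5f (-1.02 ± 0.09 and -0.96 ± 0.09) were lower in CD8 cells, unlike Inpp5d, which did not pass. Differences given here without a p had an adjusted p under 0.05 by edgeR.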

How the data were processed

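The 16 samples of total RNA fall into 4 groups of 4 by their titles. Values are the deposited raw counts per gene, whole numbers with no sign of normalisation by the authors. Per the submitters' processing notes, the submission names STAR 2.5.2a, featureCounts 1.4.6-p3, DESeq2 and the build mm10, without their settings. Per the labels' protocols, libraries came from either an unstranded or a stranded TruSeq kit, but neither the kit of each sample nor the strand setting is stated. The design text names technical replicates, but each sample has 1 column, and 0 columns were left unmatched. Libraries within a group all differed beyond sampling noise (chi-square over its degrees of freedom 29.1 to 209). Of the counts from 1 to 9, 73.9 to 80.5% were even numbers, so halved counts were tried as an alternative, and counting errors from the deposited counts may be too small.

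Genes were tested with edgeR 4.0.16 (R 4.3.3): TMM normalisation, the filterByExpr filter with a minimum count of 10 and a minimum total of 15, a model of group means over all 16 libraries (12 residual degrees of freedom) and the two-sided quasi-likelihood F test. P-values were adjusted by Benjamini-Hochberg over 13554 genes within each of 5 comparisons, and calls made under 0.05. SEs were obtained by dividing the log2 change by the root of F. The procedure was tested on simulated data. Alternatives were DESeq2 1.42.0, limma 3.58.1 voom, RLE size factors, no filter, only the groups compared, a replicate block, halved counts, libraries left out and, for levels per kilobase, the longest transcript. Positions and exon lengths are from GENCODE vM21 (GRCm38, 1-based), promoters from RefSeq (GRCm38.p6). Genes were ranked per kilobase among the 12996 tested genes with an annotated length.

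Same-numbered libraries were checked for shared deviations from their group means. The correlation was over 0.1 in all 4 pairs for CD4 CD5hi with CD4 CD5lo (0.223 to 0.508), CD8 CD5hi with CD4 CD5hi (0.214 to 0.497) and CD8 CD5lo with CD4 CD5lo (0.179 to 0.678), and these were taken as paired from the data. For CD8 CD5hi with CD8 CD5lo it was over 0.1 in 2 of 4 (-0.0462 to 0.529), so they were not. The pairs under 0.1 were numbers 3 (0.0325) and 4 (-0.0462). They hold the B-marker-rich CD8 CD5lo replicate 3 and CD8 CD5hi replicate 4, which correlated with each other at 0.42. CD4 CD5lo replicate 3, also B-marker-rich, correlated at 0.508 with CD4 CD5hi replicate 3. The part of B cell markers in this was not tested. Of the groups that differ in both lineage and CD5 level, CD8 CD5lo with CD4 CD5hi was over 0.1 in 4 of 4 (0.238 to 0.488). CD8 CD5hi with CD4 CD5lo was over 0.1 in 1 of 4 (-0.0339 to 0.344).

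The 10 genes were named in every comparison. Of each pathway list up to 3 genes with the smallest adjusted p under 0.05 were eligible to be named. Pik3r5 in CD8 cells and genes that another tool or the block called were named after their values were seen. Results of some listed genes are not reported here. The genes, lists and alternatives were chosen with earlier results of these data known. Protein sequences were not used here.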

Additional observations from a re-analysis of the deposited data

Results flagged for a closer look

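For each of the 10 genes, each group of 4 libraries was checked for a library far from the other 3 by Dixon's test, 40 groups in all. Chance alone passes that test in about 5% of groups. In CD8 CD5lo, replicate 1 had 107.3 CPM of Dok2, against 86.64 to 88.58 CPM in the other 3 libraries. Replicate 1 was also the highest for Dok2 in the other groups. In CD4 CD5lo, replicate 2 had 164.6 CPM of Sla, against 143.3 to 144.8 CPM in the other 3, and it lies within the range of CD4 CD5hi.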

How the results depend on the processing

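Of 1190 repeats of the 50 single-gene results under other settings, 1115 kept direction and side of the threshold, 45 lost a call, 13 gained one and 17 changed sign, all of the last in changes that did not pass. RLE size factors, limma voom and halved counts changed none, and the median change of all genes stayed at or under 0.03 in size under every scaling. In the CD8 CD5 comparison, genes called were 3390 with the replicate block, 813 with only the groups compared and 763 to 1647 without 1 library, against 1282. Of the 10 genes there, those higher were 4 with the block (Rasgrp1 and Dok1 added, edgeR adjusted p = 0.0017 and 0.0247), 1 with only the groups compared, 1 without the 3 B-marker-rich libraries and 1 to 3 without 1 library. Those lower were 1 with no filter, 1 with only the groups compared and 1 to 2 without 1 library. Since CD8 numbers were not taken as paired, 15 of 16 libraries matching best with their own number is only a hint from the data. The block there also called Cblb higher and Lck and Lcp2 lower. In the CD4 CD5 comparison the block called 1312 genes, against 553. Of the 10 genes, DESeq2 called 2 higher and 2 lower, the block 3 and 2, and fits without 1 library 0 to 1 higher. For the difference between lineages DESeq2 called 215 genes, the block 379, the fit without the 3 libraries 129 and fits without 1 library 8 to 165, against 42. Between lineages the block called 6336 genes among CD5hi and 4345 among CD5lo cells. Among CD5lo cells, 2 of the 10 genes were lower without the 3 libraries, and 2 to 4 without 1 library. Changes near 0 that changed sign were those of Inpp5d in CD8 cells (-0.01 without the 3 libraries, -0.04 to 0.06 without 1) and among CD5lo cells (-0.01 to 0.12), of Rasa2 in CD4 cells (-0.05 and -0.05 to 0.11), and, between the CD5 effects, of Rasa2 (-0.03 to 0.14) and Lax1 (-0.03 to 0.06). The longest transcript in place of all exonic bases moved 19 of the 20 group means of ratios by at least 1 SD. Where a setting moved a call, the cause was not tested. Counting error was largest for Dok1, at 2.43% of its lowest count, close to its spread between CD8 CD5hi libraries (coefficient of variation 2.46%).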

Other observations

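Genes whose log2 CPM over the 16 libraries was most like that of each gene that passed a test were listed by Pearson's r among 8962 genes with a mean of at least 5 CPM. Libraries of a group share lineage and CD5 level, so these values describe patterns only. Sla2 was matched most closely by the gut-homing receptor gene Ccr9 and by Nlrc5, a regulator of MHC class I genes (r = 0.983 each). Ccr9 averaged 195.2 CPM in CD8 CD5hi, 445.1 in CD8 CD5lo, 9.26 in CD4 CD5hi and 36.4 in CD4 CD5lo. Lax1 was matched by Kifc3 (0.978) and Ppic (0.976), and Sla by Cnih1 (0.976) and Ide (0.964). For Dgka the closest were Letm2 (0.972) and Cyp2s1 (0.970), the second of which averaged 4.66 CPM in CD8 CD5hi, 15.2 in CD8 CD5lo, 18.7 in CD4 CD5hi and 36.2 in CD4 CD5lo. Dgkz was matched by Foxp4 (0.970) and Tcf25 (0.963), Dok2 by Tmem38b (0.959) and Cdk2 (0.957), Rasgrp1 by Ppp2r1b (0.950) and Scaf11 (0.943), and Dok1 by Npepl1 (0.947) and Ppp2r4 (0.902).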
